A study of Mus musculus with 6 samples.

Results

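The proximal tubule amino acid transporters described here are 10 genes, taken by name from a table of 55401 genes: Slc6a19, Slc6a18, Slc6a20b, Slc3a1, Slc7a9, Slc7a13, Slc3a2, Slc7a7, Slc7a8 and Slc1a1. All 10 were among the 19717 genes with enough counts to be tested. RNA was sequenced from mouse glomeruli, the filtering units of the kidney, in 3 Control libraries and 3 libraries of the group named DKD (diabetic kidney disease). The labels give Control or DKD as the genotype and no strain, age, sex or way of bringing about the disease, so the alleles and agents of each group are not known here. The labels do not say that the libraries of a group came from separate mice. The p-values here set the difference between groups against the spread of libraries within a group, which may be technical spread.

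Amino acids that pass the glomerular filter are taken back almost completely by the proximal tubule, the first stretch of nephron after the glomerulus. Transporters in the brush border, on the side of the filtrate, bring them into the cell, and exchangers in the basolateral membrane pass them on to the blood. Several of these proteins work only as pairs: a heavy chain (Slc3a1 or Slc3a2) takes a light chain of the Slc7 family to the membrane, and collectrin (Cltrn) does so for Slc6a19 and Slc6a18. Inherited loss of such transporters spills particular amino acids into the urine, as in Hartnup disorder and cystinuria.

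These are tubule genes measured in RNA labelled as glomerular. The 10 transporters held 0.311%, 0.324% and 0.396% of all counts in Control replicates 1, 2 and 3, and 0.232%, 0.269% and 0.191% in DKD replicates 1, 2 and 3. A list of 33 other proximal tubule markers, none at 0 in any library, held 4.64% to 7.43% of the Control counts and 3.51% to 4.33% of the DKD counts. A list of 14 podocyte markers, podocytes being the epithelial cells that define a glomerulus, held 0.0526% to 0.0923% and 0.0422% to 0.0579%. Tubule marker RNA was therefore abundant in every library, and its summed share was higher in each Control library than in any DKD library. The markers did not move as one: 26 of the 33 had log2 fold changes below 0 and 7 above 0. The DKD values of 14 lay wholly below Control and those of 2 wholly above (15.2% and 15.5% of all genes). Mitochondrially encoded genes held 10.6% to 12.2% of the Control counts and 15.3% to 18.7% of the DKD counts, also without overlap. The median log2 fold change was also below 0 over the 14 podocyte markers (−0.54) and over 10 endothelial markers (−0.52). The summed shares of both lists overlapped between groups. Of the podocyte markers 7 lay wholly below Control and of the endothelial markers 3, against 15.2% of all genes. By the edgeR test given below, 0 of either list were called (0.431% of all genes were called lower and 0.725% higher). Over 10 mesangial markers the median was −0.25. Of these 2 fell (0.431% of all genes did), Agtr1a (−1.07) and Mylk (−0.80), named after their values were seen. Parietal epithelial markers, also of the glomerulus, went the other way. Their median was 0.52, with 6 of 7 above 0. They held 0.0244% to 0.0428% of the Control counts and 0.0431% to 0.0594% of the DKD counts. The part of these shifts in the results on the transporters was not tested. In such bulk RNA, fewer cells of a type and less RNA per cell cannot be told apart. Control replicate 3 had the most tubule signal, being the highest Control library for 7 of the 10 transporters and 30 of the 33 markers. DKD replicate 3 was the lowest DKD library for 8 of the 10 and 25 of the 33. Xist, the transcript of the inactive X chromosome, was between 0 and 0.209 CPM (counts relative to the library total), and Ddx3y, on the Y chromosome, between 26.1 and 38.5, so all 6 libraries had the pattern of male tissue. Total counts ran from 71154026 to 83576494 per library.

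Levels are given as CPM, the counts of a gene relative to the total counts of its library, after scaling with TMM, a method that balances libraries on the bulk of their genes. Log2 fold changes are DKD over Control with a standard error (SE). A gene was called when its p from edgeR's quasi-likelihood test, adjusted by Benjamini-Hochberg over all genes tested, was under 0.05. By this test 2 of the 10 transporters, Slc6a19 and Slc7a8, fell in DKD, against 0.431% of all genes, and 0 rose, against 0.725%. The 10 genes were chosen with earlier results of these data known, so the shares over all genes are set beside them as a description only. At an unadjusted p under 0.05 by edgeR, 5 were lower, against 10.9% of all genes, and 1 was higher, against 11.8%. DESeq2, which makes more calls on these data, called 4 lower (Slc6a19, Slc7a8, Slc7a7 and Slc6a20b; 5.42% of all genes) and 1 higher (Slc6a18; 6.4%). The log2 fold change was below 0 for 9 of the 10, with a median of −0.67, against 0.0029 over all genes tested. The 3 DKD values lay wholly below the 3 Control values for 5 genes (15.2% of all genes did so) and wholly above them for 1 gene (15.5%).

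**Figure D1:**
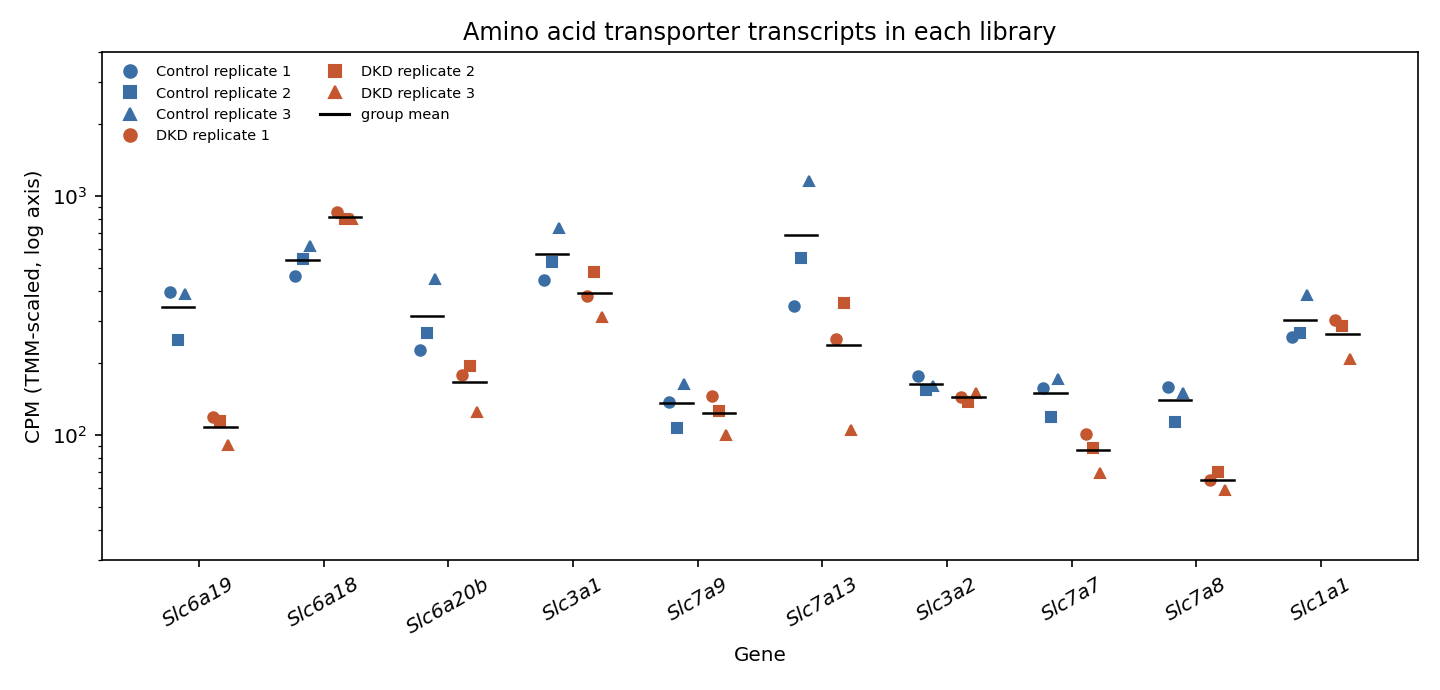
Level of each of the 10 transporters (CPM, log axis) in the 3 Control and the 3 DKD libraries, with a marker shape for each replicate and a line at each group mean. The DKD values of Slc6a19 and Slc7a8 lie below all Control values, those of Slc6a18 lie above them, and Slc7a13 is the most spread.

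The Slc6 family members of the brush border take up neutral amino acids with sodium. Slc6a19 (ENSMUSG00000021565) is the main neutral amino acid transporter of the early proximal tubule and the gene mutated in Hartnup disorder. Its level was 396, 249 and 389 CPM in Control replicates 1, 2 and 3, and 119, 114 and 90.6 CPM in DKD replicates 1, 2 and 3. Every DKD library was below every Control library, and the lowest Control library was replicate 2. The mean went from 345 ± 82.9 CPM (SD, n = 3) to 108 ± 15 CPM (SD, n = 3), which is 0.313 of the Control level. The log2 fold change was −1.68 ± 0.22 (SE; 95% interval −2.18 to −1.17), with an adjusted p of 0.0264 by edgeR's quasi-likelihood test. The call was lost, with edgeR's adjusted p at 0.116, 0.117, 0.0501 and 0.102, when Control replicate 1 or DKD replicate 1, 2 or 3 was left out. The log2 fold change stayed between −1.87 and −1.57 whichever library was left out.

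Slc6a18 (ENSMUSG00000021612) is the close relative that takes up neutral amino acids further along the tubule, and like Slc6a19 it lies on chromosome 13. It had 462, 545 and 618 CPM in the Control libraries and 860, 800 and 800 CPM in the DKD libraries. The groups did not overlap, and the direction was opposite to that of Slc6a19. The means were 542 ± 77.9 and 820 ± 34.5 CPM (SD, n = 3 each), and the log2 fold change was 0.60 ± 0.16 (SE; 95% interval 0.22 to 0.98). With an adjusted p of 0.0975 by edgeR's quasi-likelihood test it was not called.

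Slc6a20b (ENSMUSG00000025243), a kidney-enriched relative of the proline transporter Slc6a20a, had 227, 266 and 450 CPM in Control and 179, 195 and 125 CPM in DKD. The groups did not overlap, and Control replicate 3 stood well above the other Control libraries. It differed by −0.92 ± 0.29 on the log2 scale (SE; 95% interval −1.60 to −0.24; adjusted p 0.131 by edgeR's quasi-likelihood test), and by −0.57 without Control replicate 3. Of its exonic bases 21.1% lie opposite exons of Sacm1l, and 9.27% of its 31-base words also occur in Slc6a20a. Since the use of strand in counting is not given, its counts may include reads of those genes. Sacm1l differed by −0.60 ± 0.24 (log2, SE; adjusted p 0.207) and Slc6a20a by −0.27 ± 0.15 (adjusted p 0.324), both by edgeR.

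Cystine and the dibasic amino acids enter the cell through pairs built on the heavy chain Slc3a1. Slc3a1 (ENSMUSG00000024131) had 445, 529 and 735 CPM in Control and 381, 480 and 313 CPM in DKD. The groups overlapped, since DKD replicate 2 lay above Control replicate 1. The log2 fold change was −0.54 ± 0.24 (SE; 95% interval −1.11 to 0.024), with an adjusted p of 0.237 by edgeR, and it was −0.32 without Control replicate 3. Exons of Prepl lie opposite 26.5% of its exonic bases, and Prepl itself was at 79.5 to 117 CPM in Control and 66.7 to 79.8 CPM in DKD.

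Slc7a9 (ENSMUSG00000030492) is the light chain of the cystine pair, and with Slc3a1 the gene mutated in cystinuria. It had 137, 107 and 163 CPM in Control and 145, 126 and 100 CPM in DKD. The groups overlapped throughout, and the log2 fold change was −0.13 ± 0.20 (SE; 95% interval −0.60 to 0.34; adjusted p 0.747 by edgeR).

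Slc7a13 (ENSMUSG00000041052), the other light chain that pairs with Slc3a1, carries aspartate, glutamate and cystine in the late proximal tubule and is known to be higher in male than in female mice. It had 346, 552 and 1155 CPM in Control and 252, 357 and 105 CPM in DKD. Its libraries were the most spread of the 10 genes, with a coefficient of variation of 61.4% in Control and 53.1% in DKD, and the groups overlapped. The mean of 684 ± 420 CPM became 238 ± 126 CPM (SD, n = 3 each). Its log2 fold change of −1.52 ± 0.55 (SE; 95% interval −2.82 to −0.23) was not called (adjusted p 0.165 by edgeR), and it was −0.92 without Control replicate 3.

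At the basolateral membrane the heavy chain Slc3a2 (ENSMUSG00000010095), which most cell types make, serves several exchangers. It had 177, 154 and 161 CPM in Control and 144, 138 and 150 CPM in DKD. Its libraries were close together, with coefficients of variation of 7.16% in Control and 4.22% in DKD. The groups did not overlap, but the difference was small, with a log2 fold change of −0.19 ± 0.11 (SE; 95% interval −0.45 to 0.082; adjusted p 0.381 by edgeR).

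Slc7a8 (ENSMUSG00000022180), the light chain that exchanges neutral amino acids with the blood, had 159, 113 and 150 CPM in Control and 64.6, 70.2 and 58.9 CPM in DKD. Every DKD library was below every Control library. The mean fell from 141 ± 24.5 to 64.6 ± 5.67 CPM (SD, n = 3 each), which is 0.459 of the Control level. The log2 fold change was −1.12 ± 0.16 (SE; 95% interval −1.50 to −0.75), with an adjusted p of 0.0328 by edgeR's quasi-likelihood test. The call was lost without Control replicate 1 or 2 or DKD replicate 1 or 3, at adjusted p of 0.131, 0.0699, 0.137 and 0.119 by edgeR. The log2 fold change stayed between −1.26 and −1.03 in all 6 such fits.

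Slc7a7 (ENSMUSG00000000958) is the light chain that exports dibasic amino acids and is mutated in lysinuric protein intolerance. It had 158, 119 and 172 CPM in Control and 101, 88.4 and 69.2 CPM in DKD. The groups did not overlap, and the log2 fold change of −0.80 ± 0.19 (SE; 95% interval −1.25 to −0.34) had an adjusted p of 0.082 by edgeR, short of a call. Exons of Oxa1l lie opposite 7% of its exonic bases, and Oxa1l differed by −0.085 ± 0.12 (log2, SE).

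Slc1a1 (ENSMUSG00000024935), the glutamate and aspartate transporter of the brush border, had 256, 267 and 386 CPM in Control and 302, 287 and 207 CPM in DKD. The groups overlapped, and the log2 fold change was −0.19 ± 0.22 (SE; 95% interval −0.71 to 0.33; adjusted p 0.652 by edgeR). The gene 4430402I18Rik, at 4.05 to 6.8 CPM, lies opposite 31.9% of its exonic bases.

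The start regions of Slc6a19 and Slc7a8 are shown because these are the 2 genes that fell, and that of Slc3a1 because it held the motif matches. Each runs 5′ to 3′ on the gene's own strand, from 250 bases before the RefSeq transcription start to 50 after it, in build GRCm38.p6. The Slc6a19 window is chr13:73692587-73692886 on the minus strand, the Slc7a8 window is chr14:54781837-54782136 on the minus strand, and the Slc3a1 window is chr17:85028097-85028396 on the plus strand. Capitals mark matches to motifs named after a regulator of proximal tubule genes or after the core promoter: an HNF4 site (CAAAGTCCA) and a TATA box (TATAAA), each on both strands.
Slc6a19: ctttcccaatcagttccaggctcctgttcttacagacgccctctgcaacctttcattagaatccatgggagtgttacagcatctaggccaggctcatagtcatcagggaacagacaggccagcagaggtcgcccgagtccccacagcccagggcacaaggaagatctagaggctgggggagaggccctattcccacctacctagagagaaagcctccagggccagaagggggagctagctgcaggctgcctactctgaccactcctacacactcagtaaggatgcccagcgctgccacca
Slc7a8: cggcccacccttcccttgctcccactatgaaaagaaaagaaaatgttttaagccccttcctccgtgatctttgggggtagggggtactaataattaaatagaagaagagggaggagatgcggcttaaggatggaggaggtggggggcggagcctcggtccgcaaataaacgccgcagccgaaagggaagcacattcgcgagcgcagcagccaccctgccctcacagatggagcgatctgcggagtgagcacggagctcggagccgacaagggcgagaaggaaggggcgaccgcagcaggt
Slc3a1: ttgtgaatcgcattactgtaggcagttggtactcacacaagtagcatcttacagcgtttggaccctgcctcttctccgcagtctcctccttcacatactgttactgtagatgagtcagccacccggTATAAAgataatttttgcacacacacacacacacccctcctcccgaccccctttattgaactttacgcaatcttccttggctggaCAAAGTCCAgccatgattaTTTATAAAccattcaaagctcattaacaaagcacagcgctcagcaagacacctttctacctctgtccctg
Slc3a1 had an HNF4 match starting 39 bases before the start. It also had TATA matches at 124, 20 and 18 bases before the start, the last pair overlapping on opposite strands. The Slc6a19 and Slc7a8 windows held neither motif. RefSeq gave windows for 8 of the 10 genes, 13 in all, and that of Slc3a1 was the 1 window with any match. Among 32851 mouse promoters of this length, 0.475% held the HNF4 site and 13.6% the TATA box. A match describes letters only.

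The balance among the 10 transporters differed most for Slc6a18, which had the larger share in DKD. Within their summed CPM, Slc6a18 made up 16.7%, 18.8% and 14.1% in the Control libraries and 33.7%, 30.1% and 39.6% in the DKD libraries. Slc6a19 made up 14.3%, 8.59% and 8.88% in Control and 4.65%, 4.3% and 4.49% in DKD. Slc6a20b went from 9.22% ± 1.04 to 6.85% ± 0.582 (SD, n = 3 each) and Slc7a8 from 4.36% ± 1.24 to 2.7% ± 0.195, without overlap. Slc1a1 went from 9.09% ± 0.243 to 11% ± 0.812, also without overlap. Slc7a13 made up 12.5%, 19% and 26.4% of the Control sums and 9.91%, 13.4% and 5.21% of the DKD sums, which overlap. The shares of Slc3a1, Slc7a9, Slc7a7 and Slc3a2 overlapped between groups.

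**Figure D2:**
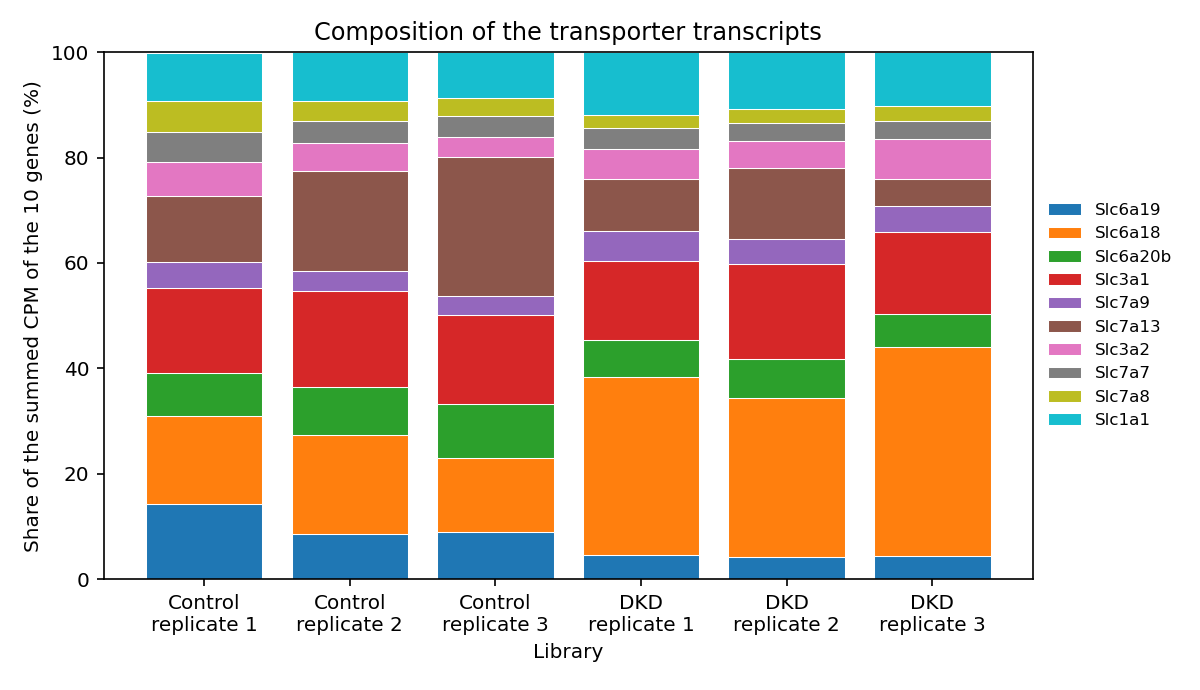
Share of each transporter in the summed CPM of the 10 genes (%), stacked by library. Slc6a18 takes 14.1% to 18.8% in the Control libraries and 30.1% to 39.6% in the DKD libraries.

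Per kilobase of exon, which allows genes to be compared with one another, Slc7a13 (320 ± 196 CPM per kilobase; SD, n = 3) and Slc3a1 (251 ± 65.6) led in Control and their libraries overlapped. Slc6a18 (123 ± 17.6) lay below all Slc3a1 values and above all Slc6a19 values (68.8 ± 16.6). From Slc6a19 down, each gene overlapped the next: Slc7a9, Slc3a2, Slc7a7, Slc6a20b, Slc1a1 and last Slc7a8 (28.1 ± 4.89). In DKD the order began with Slc6a18 (186 ± 7.81), Slc3a1 (172 ± 36.8) and Slc7a13 (111 ± 59), whose neighbours overlapped. Slc6a19 (21.5 ± 2.99) had moved from the fourth to the eighth place, behind Slc7a9, Slc3a2, Slc1a1 and Slc7a7. Slc7a8 (12.9 ± 1.13) stayed last, now below every library value of Slc6a20b (19.5 ± 4.25).

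Ratios within a library do not depend on how libraries are scaled. Slc6a19 relative to collectrin had log2 ratios of −1.46, −2.01 and −2.04 in Control and −3.36, −3.05 and −3.35 in DKD, a difference of −1.41. Slc6a18 relative to the same partner had −1.24, −0.88 and −1.37 in Control and −0.50, −0.24 and −0.20 in DKD, a difference of 0.85. Both ratios separated the groups, in opposite directions, while collectrin itself was at 1091, 1004 and 1600 CPM in Control and 1219, 944 and 922 CPM in DKD (log2 fold change −0.26, adjusted p 0.554 by edgeR). Relative to Slc3a2, the light chain Slc7a8 went from a mean log2 ratio of −0.23 ± 0.19 (SD) to −1.16 ± 0.19. Slc7a7 went from −0.14 ± 0.23 to −0.76 ± 0.32 relative to the same heavy chain. Neither of these ratios overlapped between groups. Slc7a9 relative to Slc3a1 was −2.06 ± 0.32 in Control and −1.65 ± 0.27 in DKD, with overlap. The 4 ratios that separated the groups had an exact two-sided permutation p of 0.1 each, the smallest that 3 libraries against 3 allow, and 0.125 after adjustment over the 5 ratios. Slc7a9 to Slc3a1 had an exact permutation p of 0.2 and the same after adjustment.

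The ratio of Slc6a19 to Slc6a18 was chosen after the values were seen. It was −0.22, −1.13 and −0.67 (log2) in Control and −2.86, −2.81 and −3.14 in DKD, a 4.8-fold shift in favour of Slc6a18. The basolateral pair Slc7a8 to Slc7a7, chosen in the same way, moved less, from −0.09 ± 0.10 to −0.41 ± 0.22 (SD, n = 3 each).

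**Figure D3:**
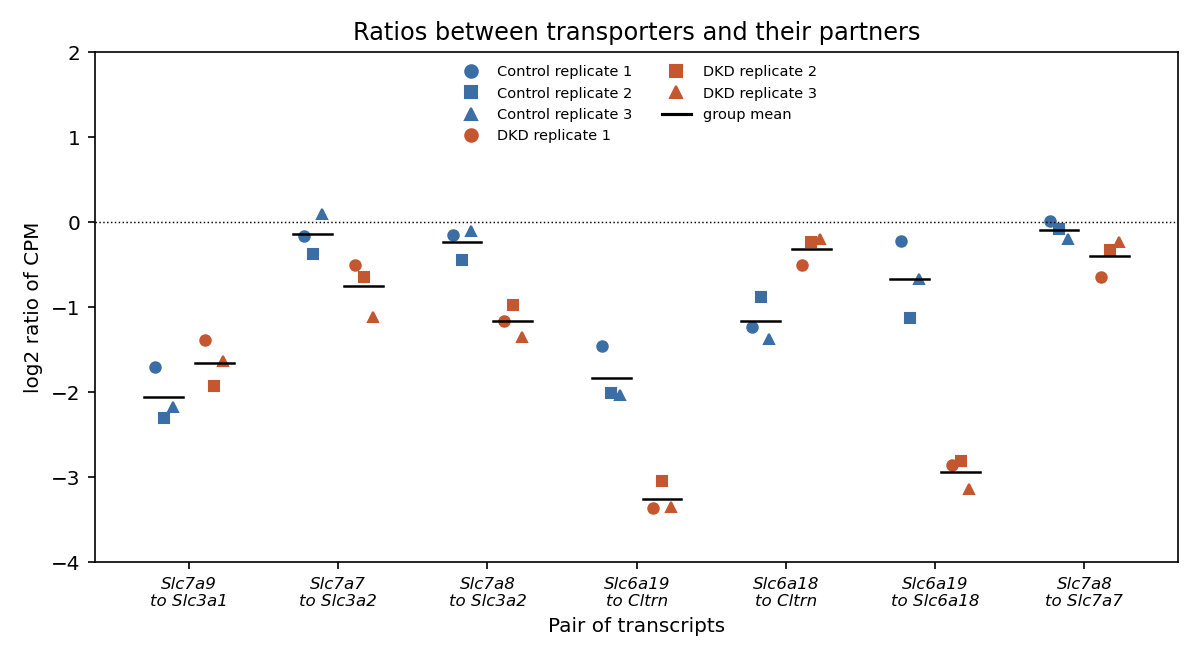
Log2 ratio of CPM within each library for the 5 pairs of transcripts that act together and for the 2 pairs chosen after the values were seen, with a line at each group mean. Slc6a19 to Cltrn is lower and Slc6a18 to Cltrn is higher in all 3 DKD libraries than in any Control library.

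Because the summed share of tubule markers differed between groups, the levels were also scaled on the mean log2 CPM of the 33 proximal tubule markers. That mean was 9.48, 9.50 and 10.24 in Control and 9.44, 9.20 and 9.00 in DKD, with Control replicate 3 well above the other libraries. This scaling moved the median log2 fold change of all genes from 0.0029 to 0.50, and that of the 10 transporters to −0.14. On this scale Slc6a19 was still called lower (log2 fold change −1.17, adjusted p 0.035 by edgeR; 0.218% of all genes were called lower). Slc6a18 was now called higher (1.12, adjusted p 0.0225 by edgeR; 3.02% of all genes were called higher). Slc7a8 was at −0.62 and no longer called (adjusted p 0.186 by edgeR), though its 3 DKD values still lay below its Control values. Slc3a1 was at 0.0099, level with the markers. Slc1a1 (0.34), Slc3a2 (0.31) and Slc7a9 (0.39) changed sign against the first scaling and were not called. The log2 fold changes of Slc3a1, Slc1a1, Slc3a2 and Slc7a9 lay below the median of 0.50 over all genes. The DKD values of Slc1a1 and Slc7a9 lay wholly above Control on this scale. How large a share of all genes had no overlap on this scale was not counted. The other members, Slc6a20b (−0.34), Slc7a7 (−0.29) and Slc7a13 (−0.91), stayed below 0 with overlapping libraries. How much of each change came with the tubule content of the libraries was not tested further.

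**Figure D4:**
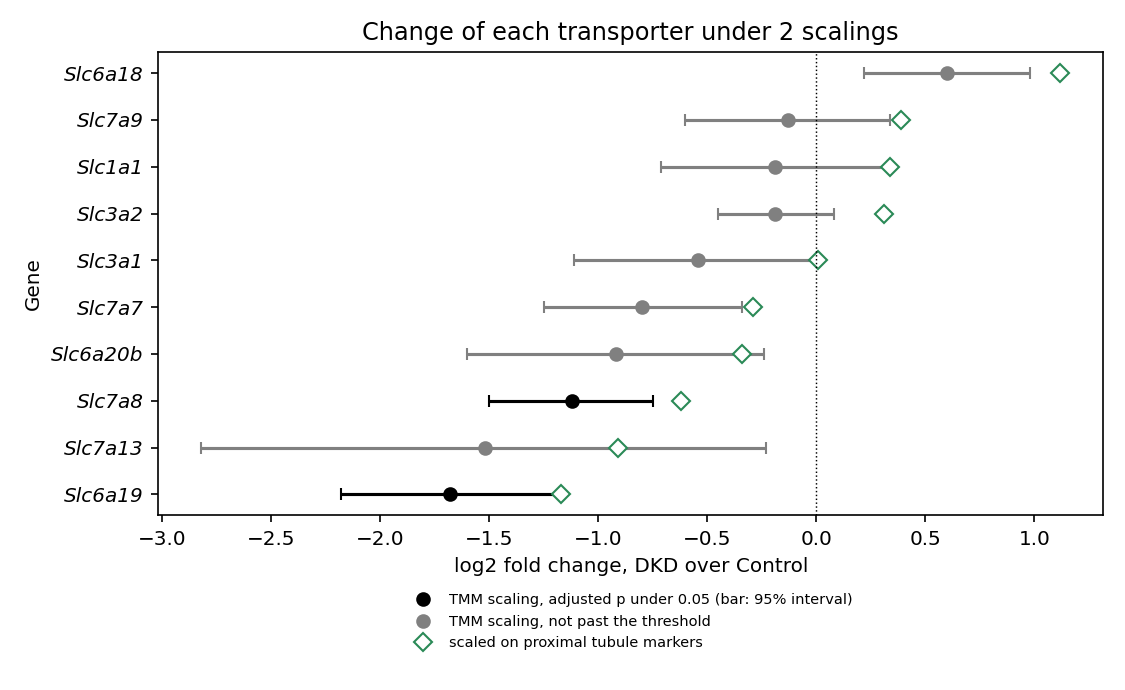
Log2 fold change of each transporter, DKD over Control, after TMM scaling (circles, black where called, with 95% intervals) and after scaling on 33 proximal tubule markers (diamonds). Slc6a19 and Slc6a18 lie on opposite sides of 0 under both scalings.

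The proximal tubule has early and late segments, called S1 and S3, which differ in their transporters. Of 4 S1 markers, 3 fell, against 0.431% of all genes. Named after their values were seen, they are the glucose transporter Slc5a2, the lactate transporter Slc5a12 and the phosphate transporter Slc34a3. Their log2 fold changes were −1.82, −2.56 and −2.74 (adjusted p 0.0445, 0.0192 and 0.0233 by edgeR). Slc5a12 had 223, 140 and 261 CPM in Control and 38.3, 36.9 and 30.2 CPM in DKD. Together the 4 S1 markers held 0.107% ± 0.0192 of Control counts and 0.0357% ± 0.0101 of DKD counts (SD, n = 3 each). Of 4 S3 markers 0 were called (0.431% of all genes were called lower and 0.725% higher). By edgeR 1 was lower at an unadjusted p under 0.05, against 10.9% of all genes. The S3 shares of 0.157% ± 0.0607 and 0.0827% ± 0.0363 overlapped. The S3 log2 fold changes ran from −1.08 to −0.26, and Gatm, the S1 marker not called, was at −0.90. Slc6a19, an early transporter, was also lower in DKD. Any gene called lower is lower in these same libraries, and the part of the S1 markers in the change of Slc6a19 was not tested.

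Some of the transporters shared an order of libraries within each group. Slc3a1, Slc6a20b and Slc7a13 were highest in Control replicate 3 and lowest in Control replicate 1, and highest in DKD replicate 2 and lowest in DKD replicate 3. The same order held for 4 of 4 S3 markers, 0 of 4 S1 markers and 5 of 33 proximal tubule markers. Slc6a19, Slc7a7 and Slc7a9 were lowest in Control replicate 2, highest in DKD replicate 1 and lowest in DKD replicate 3. That order held for 4 of 4 S1 markers, 0 of 4 S3 markers and 8 of 33 proximal tubule markers. This second order does not say which Control library was highest, and 3 of the 4 S1 markers are also among the 33. Slc1a1, Slc3a2, Slc6a18 and Slc7a8 followed neither order. Both orders were chosen after the values were seen, and the share of all genes that followed each was not counted. With 3 libraries a group these orders are a description only.

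Among 37 other amino acid and peptide transporters, 1 rose (0.725% of all genes did) and 0 fell (0.431%). Their median log2 fold change was −0.097. The DKD values of 8 lay wholly below Control and those of 4 wholly above (15.2% and 15.5% of all genes). At an unadjusted p under 0.05 by edgeR, 4 were higher (11.8% of all genes) and 7 lower (10.9%), and DESeq2 called 5 in either direction (11.8% of all genes). The 4 higher at the unadjusted p and the 5 called by DESeq2 are near the share over all genes. The gene that rose was Slc6a9, a glycine transporter, at 27.2, 25.6 and 25.5 CPM in Control and 70.4, 62.2 and 92.7 CPM in DKD. It rose by 1.53 ± 0.16 on the log2 scale (SE; adjusted p 0.0192 by edgeR's quasi-likelihood test). Every DKD library was above every Control library. Exons of B4galt2, Ccdc24 and Gm17114 lie opposite 30.2% of its exonic bases, so its counts may include reads of those genes. That call was lost without Control replicate 1, Control replicate 2 or DKD replicate 1, at adjusted p of 0.0937, 0.0794 and 0.0885 by edgeR. The following genes were named after their values were seen. The glutamine transporter Slc38a3 had 81.3, 85.4 and 38.4 CPM in Control and 131, 146 and 214 CPM in DKD without a call (1.26 ± 0.33, SE; adjusted p 0.0928 by edgeR). The taurine transporter Slc6a6 (0.63 ± 0.14, adjusted p 0.0726 by edgeR) lay above Control in all 3 DKD libraries, and the neutral amino acid transporter Slc43a2 (−0.60 ± 0.14, adjusted p 0.0714 by edgeR) lay below it.

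Of 10 partners and regulators of these transporters, 1 rose (0.725% of all genes did) and 0 fell (0.431%). The transcription factor Cebpb rose, from 25.7, 29.7 and 21.1 CPM to 74, 61.9 and 99 CPM. It rose by 1.62 ± 0.21 on the log2 scale (SE; adjusted p 0.0263 by edgeR's quasi-likelihood test). The call was lost without Control replicate 1 or 2 or DKD replicate 1 or 3 (adjusted p 0.129, 0.0804, 0.109 and 0.0681 by edgeR). Exons of Tmem189 lie opposite 20.7% of its exonic bases. Of the tubule regulators, named after their values were seen, Hnf4a differed by −0.59 (adjusted p 0.155) and Maf by −0.75 (adjusted p 0.0629), by edgeR. Cebpb is also 1 of 15 genes listed for ATF4, the factor that cells use when amino acids run short. The list holds targets of ATF4 and Atf4 itself, which was at 0.097. Cebpb was the only one called (0.725% of all genes were called higher), while 13 of the 15 had log2 fold changes above 0, with a median of 0.50. Over all genes tested, 9907 of 19717 were above 0.

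Brush border peptidases release the amino acids that these transporters take up. Of 11, 0 were called by edgeR (0.431% of all genes were called lower and 0.725% higher). At an unadjusted p under 0.05 by edgeR, 3 were lower (10.9% of all genes). Log2 fold changes were below 0 for 9, with a median of −0.54 over the 11. Those with the smallest p were Dpep1, a dipeptidase, at −0.79 ± 0.17 (SE; adjusted p 0.0631 by edgeR) and Enpep, an aminopeptidase, at −0.64 ± 0.15 (adjusted p 0.0776 by edgeR).

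Among genes outside the lists with a mean of at least 5 CPM, those whose log2 CPM followed the mean log2 CPM of the 10 transporters most closely over the 6 libraries were Glb1l, Ldlrad3, Srpr, Ube4a and Nsd3, with Pearson correlations of 0.998, 0.998, 0.997, 0.997 and 0.997. Glb1l, for example, had 126, 127 and 184 CPM in Control and 96.5, 98.7 and 67.4 CPM in DKD. These points share their libraries and fall into the 2 groups, so the correlations are a description.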

How the data were processed

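Per the labels' protocols, the 3 Control and 3 DKD libraries were made from polyadenylated RNA with dUTP marking of the strand, and paired reads were sequenced. The values are whole-number counts for each Ensembl gene as the authors deposited them, not normalized; fastp, HISAT2, StringTie, edgeR and build GRCm39 are named in the submitters' processing notes. Not given in the sources used here are their versions, the annotation release and the use of strand in counting. Values of 4 (6267) and 8 (2929) outnumbered their neighbours (3129 of 3, 1993 of 5, 1784 of 7, 1305 of 9), so the counts may be converted coverage estimates. Symbols and exon lengths came from a GRCm38 annotation, in which 260 of the 55401 identifiers had no symbol. Where Ddit3 had 2 rows, the one with more counts was used.

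Genes were kept by filterByExpr (minimum count 10), scaled by TMM and put through edgeR's quasi-likelihood test (edgeR 4.0.16, R 4.3.3), the model holding the group alone. SE is the log2 fold change divided by the square root of F. Ratios and shares were compared by exact permutation. Tested on simulated data of 19161 genes, the fit found 23 of 100 genes changed by a log2 of 1 and 63 of 100 changed by 2, and 6 of its 92 calls were unchanged genes. The 10 members and all lists were chosen with earlier results of these data known. Named were all members, the transporters, partners, peptidases and ATF4 targets past the threshold or else the 2 of such a list with the smallest p, and the 5 genes of at least 5 mean CPM most like the members, leaving out predicted models. Cell type lists are given as sums and counts in place of the up to 3 levels each that the rule allowed. Genes named for other reasons are marked as such. Alternatives were RLE factors, library totals, scaling on tubule markers, other filters, robust dispersion, limma-voom (limma 3.58.1), DESeq2 1.42.0, the replicate number as a block, shares without mitochondrially encoded genes, and each library left out. Of the listed regulators, 1 item is not reported here.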

Additional observations from a re-analysis of the deposited data

How the results depend on the processing

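The 228 genes called over all genes (143 higher, 85 lower) became 638 with scaling on tubule markers (595 higher, 43 lower), 516 with a filter of 1 CPM, 56 with no filter, 2152 with DESeq2 and 1 to 386 when a library was left out; library totals gave 101 higher and 174 lower, with a median of −0.13 over all genes. Fits without Control replicate 3 or DKD replicate 2 made the most calls of these (386 and 298), and those without Control replicate 1 or 2 or DKD replicate 1 or 3 the fewest (1, 13, 4 and 10). With the replicate number as a block 0 genes were called, with 3322 at an unadjusted p under 0.05 by edgeR, so 0 members and 0 other transporters were called; Slc6a19 then had an adjusted p of 0.143 and Slc7a8 of 0.166. The labels do not say that the numbers pair libraries, and whether same-numbered libraries shared a batch was not tested. Same-numbered libraries deviated from their group means with correlations of −0.183, 0.0663 and −0.224. Within a group of 3 the deviations sum to 0, so these values cannot decide the question. Of the members, 2 were called lower at first, 1 with marker scaling, 0 with no filter (6 at an unadjusted p under 0.05 in either direction), 4 with DESeq2 and 0 to 2 with a library left out; 0 were called higher at first and 1 each with marker scaling and DESeq2. Of the other transporters, 1 was called at first, 2 with marker scaling, 5 with DESeq2 and 0 to 1 with a library left out. The members' median log2 fold change of −0.67 became −0.14 with marker scaling and ran from −0.78 to −0.44 with a library left out. Signs reversed under marker scaling for Slc1a1 (0.34), Slc3a1 (0.0099), Slc3a2 (0.31) and Slc7a9 (0.39), without Control replicate 3 for Slc1a1 (0.021) and Slc7a9 (0.024), and without DKD replicate 3 for Slc7a9 (0.0027); over all libraries left out in turn they ran from −0.30 to 0.021 for Slc1a1 and from −0.27 to 0.024 for Slc7a9. Slc6a19 kept its direction in 15 of 15 alternatives and passed the threshold in 9, and Slc7a8 passed in 8 of 15. The causes of these differences were not tested. The members' share of counts and the 5 partner ratios kept their direction with each library left out, as did the share without mitochondrially encoded genes. Where the groups did not overlap, leaving out 1 library could not reverse the direction. This was so for the share and for every partner ratio except Slc7a9 to Slc3a1, whose difference ran from 0.277 to 0.589. With 3 libraries a group, changes of a log2 of 1 were mostly missed in the test on simulated data.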
